A study of Mus musculus with 4 samples.

Results

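The interleukin-1 (IL-1) family genes Il1a, Il1b, Il18, Il33, Il1rn, Il1r1, Il1rap and Il1rl1 were followed in RNA sequencing of mouse gastric organoids, which are stomach epithelial cells grown as small structures in culture. They were taken by gene symbol, and all 8 were found among the 45777 genes of the deposited tables. The Smad4 Knockout group held organoids labelled as knocked out for Cdh1, Trp53 and Smad4 (lines CPS1 and CPS4, called Smad4 Knockout 1 and 2 here). The Control group held organoids labelled as knocked out for Cdh1 and Trp53 (lines CPE and CPG, called Control 1 and 2), so the labelled knockout of E-cadherin and p53 was shared by all libraries. Cells were kept in medium with serum and supernatant of L-WRN cells, which secrete Wnt, R-spondin and noggin, and were then moved for 2 days to serum-free medium that held B27 and N2 but not that supernatant. Whether each line is 1 clone, whether different animals gave the lines, and whether the Control lines were the parents of the Smad4 Knockout lines is left unsaid by the labels, so p-values measure the spread between these libraries only.

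IL-1 family cytokines alert tissue to injury and infection, and epithelium is a main store of several of them. IL-1α (Il1a), IL-1β (Il1b), IL-18 (Il18) and IL-33 (Il33) each bind a primary receptor chain, which then recruits a second chain, and the complex signals through MyD88 and IRAK kinases to NF-kB. IL-1α and IL-33 are active without caspase-1 and are set free by damaged cells, whereas IL-1β and IL-18 need cleavage before release. IL-1α and IL-1β share the receptor IL1R1 (Il1r1), IL-33 uses ST2 (Il1rl1), and both receptors take IL1RAP (Il1rap) as the second chain. The antagonist IL-1Ra (Il1rn) occupies IL1R1 without recruiting IL1RAP.

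The sequences upstream of the ligand genes are shown because these genes held the highest and the lowest level among the 8 and the 2 members with an unadjusted p under 0.05. RefSeq promoter sequences of GRCm38.p6, the patched form of the mm10 build named for the files, were matched for all 8 genes, with 13 annotated starts in all. The starts are those of the promoter table. The gene spans given further on come from the RefSeq gene table and reach past these starts for Il1a and Il1b, so that the Il1a window and part of the Il1b window lie inside them. The Il33 window also lies inside the Il33 span, because it precedes the second of its 2 starts. The last 100 bases before the start are given for Il33 (chr19:29945690-29945789, plus strand, the second of its 2 starts), Il1a (chr2:129309973-129310072, minus strand), Il18 (chr9:50554600-50554699, plus strand) and Il1b (chr2:129371140-129371239, minus strand). Capitals mark the letters of the TATA box, spelled TATAAA. In Il1a a further run of capitals, which does not overlap it, marks a match to the AP-1 site described with its letters after the sequences.
Il33: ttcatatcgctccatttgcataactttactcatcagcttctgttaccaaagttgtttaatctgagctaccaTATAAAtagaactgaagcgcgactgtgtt
Il1a: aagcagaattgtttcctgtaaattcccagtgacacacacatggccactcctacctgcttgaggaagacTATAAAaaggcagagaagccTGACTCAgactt
Il18: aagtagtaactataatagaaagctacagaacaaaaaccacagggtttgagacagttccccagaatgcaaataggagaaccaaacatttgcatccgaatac
Il1b: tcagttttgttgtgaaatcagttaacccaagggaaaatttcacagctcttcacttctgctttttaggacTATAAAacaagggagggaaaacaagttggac
TATAAA began at position -29 in Il33, -32 in Il1a and -31 in Il1b, where -1 is the last base before the start, and these letters were not in the window of Il18. A TATAAA on the gene's strand beginning from -35 to -25 was held by 1.75% of the 32851 promoters in the table. The second Il33 start was picked because TATAAA lies near it, so its match cannot be weighed against that share. At the first Il33 start TATAAA began at -203. The AP-1 letters TGANTCA were searched on both strands of the 250 bases before each start. They were found for Il1a at -12 and for Il1rn at -141 before the first of its 3 starts, and in 6.75% of all promoters. The SMAD element CAGACA was found in 0 of the 13 member windows, and in 17.1% of all promoters, while an NF-kB motif was found in 1, at an Il1r1 start, and in 3.9% of all promoters. These matches describe letters only.

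Each library held from 85649781 to 96402585 counts in the Smad4 Knockout group and from 92334224 to 99845702 counts in the Control group. CPM, the count relative to a library size scaled by the TMM method of edgeR, was used to compare a gene between libraries, and TPM, which also divides by transcript length, was used to compare genes. Smad4 was at 54.4 and 52.9 CPM in the Smad4 Knockout libraries, against 94.5 and 103 CPM in the Control libraries, so transcript of the targeted gene remained. Epithelial markers (Epcam, Krt8, Krt18, Krt19, Cldn4) summed to 9060 to 9735 TPM in a library. Of the 4 leukocyte markers Cd52 was at 0 in all libraries and the sum ranged from 1.65 to 3.41 TPM. Of the 5 T cell and innate lymphoid markers Cd3e, Cd3g, Trbc2 and Il7r were at 0, and Gata3 was at 0.129 to 0.335 TPM in the Smad4 Knockout libraries and 0.111 to 0.152 TPM in the Control libraries. Macrophage markers, nearly all Cd68, summed to 4.46 to 5.29 TPM and endothelial markers to 1.05 to 1.63 TPM. In bulk RNA, fewer cells of a type and less RNA per cell cannot be told apart.

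By median TPM, Il33 and Il1a were the most abundant of the 8 transcripts, and Il1b was close to absent. Across the 4 libraries, lowest, median and highest levels were 113, 129 and 154 TPM for Il33, 35.2, 72.4 and 115 TPM for Il1a, and 34.0, 37.0 and 45.7 TPM for Il1rn. Il1r1 followed with 13.9, 16.5 and 18.2 TPM, and Il18 with 8.73, 11.7 and 17.8 TPM. The remaining receptor chains were lower, with a median of 2.66 TPM for Il1rap and 0.603 TPM for Il1rl1. The ranges of the neighbours Il33 and Il1a, Il1a and Il1rn, and Il1r1 and Il18 overlapped, while Il1rn and Il1r1, Il18 and Il1rap, and Il1rap and Il1rl1 did not overlap. Il33 ranked 916 and 741 by TPM among the genes above 0 in Smad4 Knockout 1 and 2, and 975 and 1085 in Control 1 and 2.

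**Figure D1:**
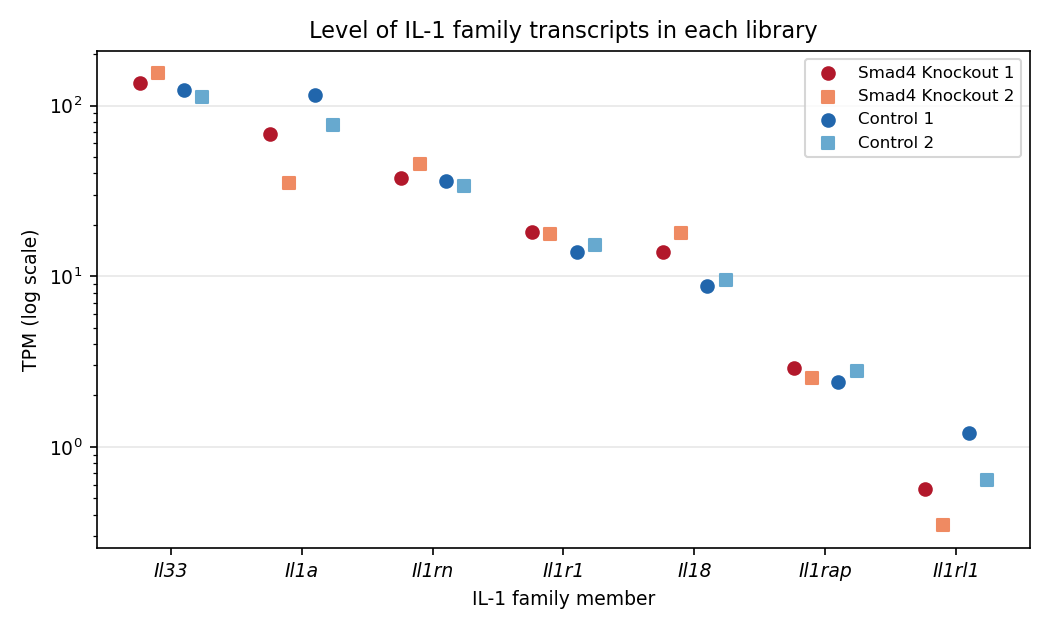
TPM on a log scale (y axis) of 7 IL-1 family genes (x axis), with 1 point per library and the Smad4 Knockout libraries to the left of the Control libraries in each gene. Il33 lies highest, from 113 to 154 TPM, and in Smad4 Knockout 2 Il1a, at 35.2 TPM, lies below Il1rn, at 45.7 TPM; Il1b, at 0 in 3 libraries, is not drawn.

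The main question was how the family differed between Smad4 Knockout and Control organoids. With edgeR's quasi-likelihood test 0 of the 7 tested members passed an adjusted p of 0.05, as did 0% of all 18115 tested genes in either direction. At an unadjusted p under 0.05 edgeR had 1 member higher (Il18) and 1 lower (Il1a), against 3.33% of all tested genes higher and 3.04% lower. DESeq2 called 0 members, beside 0.513% (higher) and 0.173% (lower) of its tested genes. With limma on TPM, 0 members and 0% of the tested genes were called. In 2 members, Il18 and Il1r1, both Smad4 Knockout libraries lay above both Control libraries, as in 18.2% of all tested genes, and in 2, Il1a and Il1rl1, both lay below, as in 18.6%. The median log2 fold change of the 7 tested members was 0.22, with 5 above 0 and 2 below, beside -0.0026 over all tested genes, of which 49.5% were above 0. With 1 library left out, its group held a lone library that was assumed to vary like the other group. Those fits are therefore read for effect sizes only.

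Among the ligands, Il1a (gene ID 16175, located on chromosome 2 from 129299609 to 129310186) was at 78.9 and 43.7 CPM in the Smad4 Knockout libraries, against 145 and 90.8 CPM in the Control libraries. Both Smad4 Knockout values were below both Control values. The means were 61.3 ± 24.9 CPM in Smad4 Knockout and 118 ± 38.7 CPM in Control organoids (SD, n = 2 each), a level of 51.9% of Control, with a log2 fold change of -0.95 (SE 0.33, edgeR adjusted p = 0.727). Control 1 exceeded Control 2 by 0.68 and Smad4 Knockout 1 exceeded Smad4 Knockout 2 by 0.85 in log2(CPM + 0.5), so the spread inside each group was close in size to the difference between them. The log2 fold change was -0.56 without Control 1, -0.57 without Smad4 Knockout 2 and -1.43 without Smad4 Knockout 1.

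The Il1a locus is overlapped on the other strand by Gm14023, a noncoding transcript in the GENCODE M21 annotation. Gm14023 had 27 and 37 counts in Smad4 Knockout 1 and 2, against 0 and 5 counts in Control 1 and 2. The library kit keeps the strand, but no source used here gives the strand setting of the counting, and these counts were under 1% of those of Il1a.

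Il1b (gene ID 16176, located on chromosome 2 from 129364569 to 129371164), the neighbour of Il1a, had 4 and 0 counts in the Smad4 Knockout libraries and 0 and 0 in the Control libraries. A count of 0 allows up to 3 counts, or 0.0306 to 0.0324 CPM in the libraries at 0, so no fold change is given. Its upstream sequence, printed above, holds the same TATAAA at nearly the same distance from the start as that of Il1a. Il1bos, which overlaps Il1b on the other strand, had 10 and 0 counts in the Smad4 Knockout libraries and 0 and 10 in the Control libraries.

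Il18 (gene ID 16173, located on chromosome 9 from 50554700 to 50581841) had the largest positive fold change among the 7 tested members. It was at 8.83 and 13 CPM in the Smad4 Knockout libraries, against 6.37 and 6.67 CPM in the Control libraries. The Control libraries were close together, and Smad4 Knockout 2 lay furthest from them. The means were 10.9 ± 2.95 CPM in Smad4 Knockout and 6.52 ± 0.21 CPM in Control organoids (SD, n = 2 each), with a log2 fold change of 0.74 (SE 0.23, edgeR adjusted p = 0.677) that ranged from 0.45 without Smad4 Knockout 2 to 0.995 without Smad4 Knockout 1. Bco2, which overlaps Il18 on the other strand, was at 4.2 and 5.58 CPM in the Smad4 Knockout libraries, against 3.49 and 4.15 CPM in the Control libraries.

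Il33 (gene ID 77125, located on chromosome 19 from 29925113 to 29960718) was at 202 and 248 CPM in the Smad4 Knockout libraries, against 202 and 173 CPM in the Control libraries. Smad4 Knockout 1 and Control 1 were nearly equal, so the groups overlapped. The log2 fold change was 0.26 (SE 0.14, edgeR adjusted p = 0.84), and it was 0.12 without Smad4 Knockout 2, 0.15 without Control 2 and 0.40 without Smad4 Knockout 1. The genes whose centred log2 CPM lay closest to that of Il33 over the 4 libraries were Meak7, Gm5905 and Prdx6, with root mean square differences of 0.0123, 0.0135 and 0.0178 against a median of 0.206 over the 10803 genes averaging at least 5 CPM. Prdx6 encodes a peroxiredoxin that reduces lipid peroxides, and with 4 points many genes can lie this close.

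The share of each ligand in the summed ligand transcripts followed. Of the summed TPM of the 4 ligands, Il1a made up 31.4% and 16.98% in Smad4 Knockout 1 and 2, against 46.5% and 38.5% in Control 1 and 2. Il33 made up 62.2% and 74.4% in the Smad4 Knockout libraries, against 49.95% and 56.7% in the Control libraries. Il18 made up 6.4% and 8.59% in the Smad4 Knockout libraries, against 3.54% and 4.77% in the Control libraries. For each of these 3 shares the groups did not overlap, and the shares are tied to each other because they sum to the whole.

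**Figure D2:**
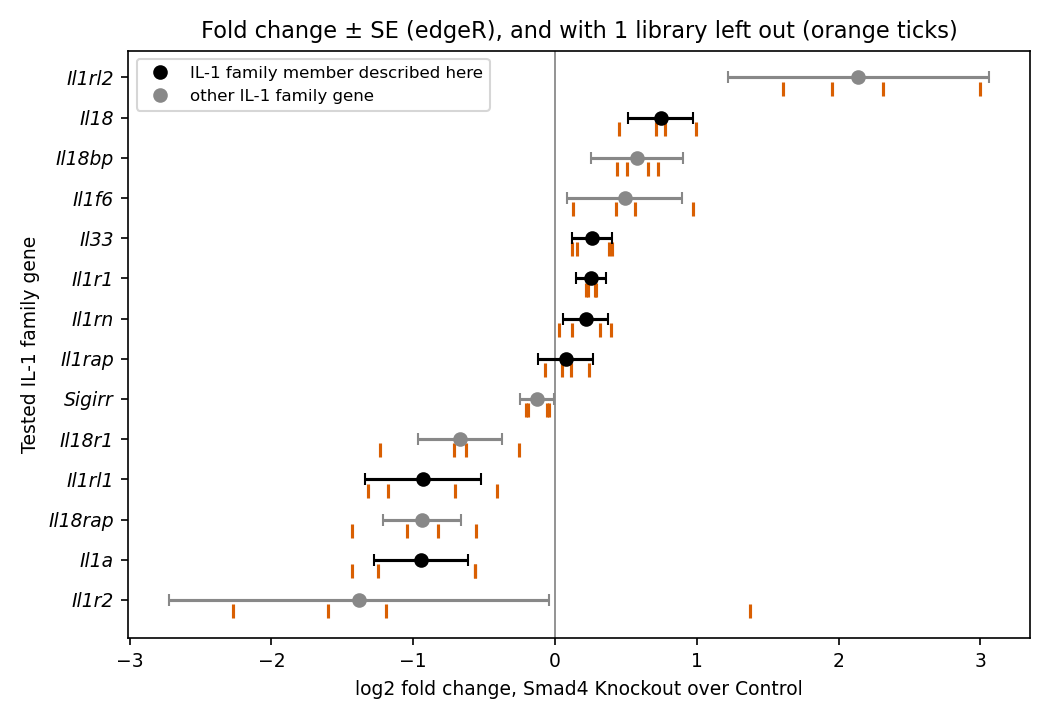
Log2 fold change of Smad4 Knockout over Control (x axis) with its standard error for the 14 tested IL-1 family genes (y axis); black points are the members followed here, grey points the other family genes, and orange ticks the values with 1 library left out. Il18 (0.74) and Il1a (-0.95) mark the ends among the black points above and below 0, and the ticks of Il1rap fall on both sides of 0.

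The antagonist Il1rn (gene ID 16181, located on chromosome 2 from 24336860 to 24351491) was at 54.4 and 70.9 CPM in the Smad4 Knockout libraries, against 57.5 and 50.4 CPM in the Control libraries. The groups overlapped, and the log2 fold change was 0.22 (SE 0.16, edgeR adjusted p = 0.9), and it was 0.03 without Smad4 Knockout 2, 0.12 without Control 2 and 0.39 without Smad4 Knockout 1. Relative to the ligand it competes with, it was higher in both Smad4 Knockout libraries. The ratio of Il1rn to Il1a TPM was 0.552 and 1.3 in Smad4 Knockout 1 and 2, against 0.317 and 0.444 in Control 1 and 2, a 2.26-fold difference of the geometric means. Smad4 Knockout 2 was the library in which Il1rn exceeded Il1a. With 2 libraries a group the smallest two-sided p of an exact permutation test is 0.333, and the ratios were not tested.

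Of the receptor chains, Il1r1 (gene ID 16177, located on chromosome 1 from 40222480 to 40316201), the signalling receptor for IL-1α and IL-1β, was at 52.3 and 54.5 CPM in the Smad4 Knockout libraries, against 43.6 and 45.97 CPM in the Control libraries. The libraries of each group lay close together and the groups did not overlap. The means were 53.4 ± 1.60 CPM in Smad4 Knockout and 44.8 ± 1.65 CPM in Control organoids (SD, n = 2 each), with a log2 fold change of 0.25 (SE 0.10, edgeR adjusted p = 0.789) that stayed between 0.22 and 0.29 when any library was left out. Gm38070 overlaps Il1r1 on the same strand in the GENCODE M21 annotation, so strand cannot separate reads of the shared stretch.

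Il1rl1 (gene ID 17082, located on chromosome 1 from 40404864 to 40465418), which encodes ST2, was at 1.4 and 1.02 CPM in the Smad4 Knockout libraries, against 3.01 and 1.61 CPM in the Control libraries. Both Smad4 Knockout values were the lower ones, on 121 and 99 counts in Smad4 Knockout 1 and 2 and 295 and 149 counts in Control 1 and 2. The log2 fold change was -0.93 (SE 0.41, edgeR adjusted p = 0.806) and -0.41 without Control 1. With limma on log2(TPM + 1) and no TPM filter it was -0.39. Gene counts do not separate the membrane form of ST2 from its soluble form. Of the 4 markers of mast cells, which carry ST2, Cpa3 and Mcpt4 were at 0 in all libraries and Ms4a2 had 14 counts in Smad4 Knockout 1 and 0 in the others. Kit, the remaining one, was at 28.2 and 22.05 TPM in the Smad4 Knockout libraries, against 23.1 and 34.2 TPM in the Control libraries.

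The shared chain Il1rap (gene ID 16180, located on chromosome 16 from 26581509 to 26730128) was at 6.69 and 7.05 CPM in the Smad4 Knockout libraries, against 5.82 and 7.23 CPM in the Control libraries. The groups overlapped, and the log2 fold change of 0.07 (SE 0.20, edgeR adjusted p = 0.995) turned to -0.07 without Control 1. The ratio of Il1rap to Il1r1 TPM was 0.16 and 0.144 in the Smad4 Knockout libraries, against 0.172 and 0.181 in the Control libraries, so the second chain was the scarcer transcript in every library. Against Il1rl1, the ratio of Il1rap was 5.17 and 7.33 in the Smad4 Knockout libraries, against 1.99 and 4.31 in the Control libraries.

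**Figure D3:**
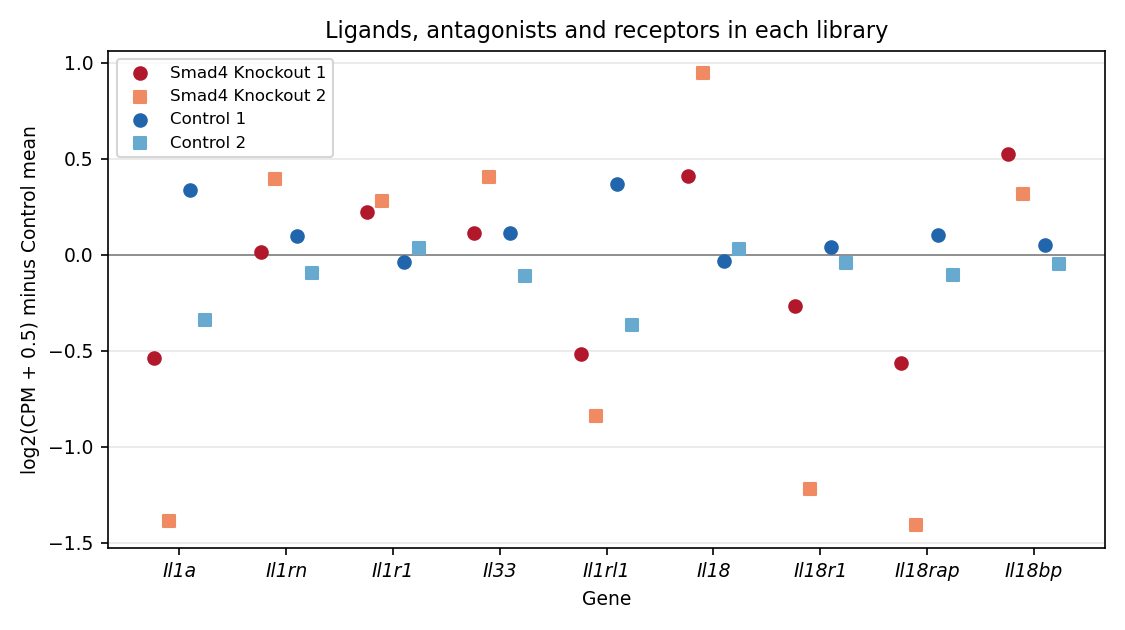
Log2(CPM + 0.5) minus the mean of the Control libraries (y axis) for ligands, antagonists and receptors (x axis), with 1 point per library. The Smad4 Knockout points of Il1a, Il1rl1, Il18r1 and Il18rap lie below both Control points and those of Il1r1, Il18 and Il18bp lie above both, and Smad4 Knockout 2 lies at -1.38 for Il1a and 0.94 for Il18.

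The rest of the family held 13 further genes, of which 7 were tested. Il1f10, Il1rapl1 and Il1rapl2 had 0 counts in all libraries. Il1f8 (Il36b), Il1f9 (Il36g) and Il1f5 (Il36rn) were at most at 0.22 CPM. Of the 7 tested, 3 were above 0 and 4 below, with a median log2 fold change of -0.13. That median has no steady sign: it was 0.19 with DESeq2 and with no count filter, 0.02 with limma and no TPM filter, 0.31 without Control 1, 0.13 without Control 2 and 0.07 without Smad4 Knockout 1. With edgeR 0 passed over all genes and 1 was lower at an unadjusted p under 0.05, beside 3.04% of all tested genes. DESeq2 called 1, Il18rap, as lower, beside 0.173% of its tested genes.

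The chains of the IL-18 receptor were lower where the ligand Il18 was higher. Il18rap, the second chain, was at 41.2 and 22.7 CPM in the Smad4 Knockout libraries, against 65.7 and 56.8 CPM in the Control libraries. Both Smad4 Knockout values lay below both Control values, with a log2 fold change of -0.94 (SE 0.28, edgeR adjusted p = 0.677, DESeq2 adjusted p = 0.0386). Il18r1, the chain that binds IL-18 first, was at 61.7 and 31.6 CPM in the Smad4 Knockout libraries, against 76.4 and 72.1 CPM in the Control libraries, with a log2 fold change of -0.67 (SE 0.30, edgeR adjusted p = 0.81). Without Smad4 Knockout 1, Smad4 Knockout 2 was the lone library of its group and was assumed to vary like the Control libraries. That fit is not used to call either gene. Without Smad4 Knockout 2 the log2 fold changes were -0.56 for Il18rap and -0.25 for Il18r1.

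By median TPM over the 4 libraries, Il18r1 (34.1) and Il18rap (17.1) lay above Il18 (11.7). In Smad4 Knockout 2 the order was the other way, with Il18 at 17.8 TPM, Il18r1 at 15.7 TPM and Il18rap at 7.38 TPM. The ratio of Il18rap to Il18r1 TPM was 0.439 and 0.469 in the Smad4 Knockout libraries, against 0.58 and 0.56 in the Control libraries. Both chains lie with Il1r1 and Il1rl1 in the receptor cluster of chromosome 1, where Il1r1 was higher and Il1rl1 lower in both Smad4 Knockout libraries. Il18bp, the soluble decoy for IL-18, was at 1.78 and 1.48 CPM in the Smad4 Knockout libraries, against 1.14 and 1.04 CPM in the Control libraries (log2 fold change 0.58, SE 0.33, edgeR adjusted p = 0.848).

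**Figure D4:**
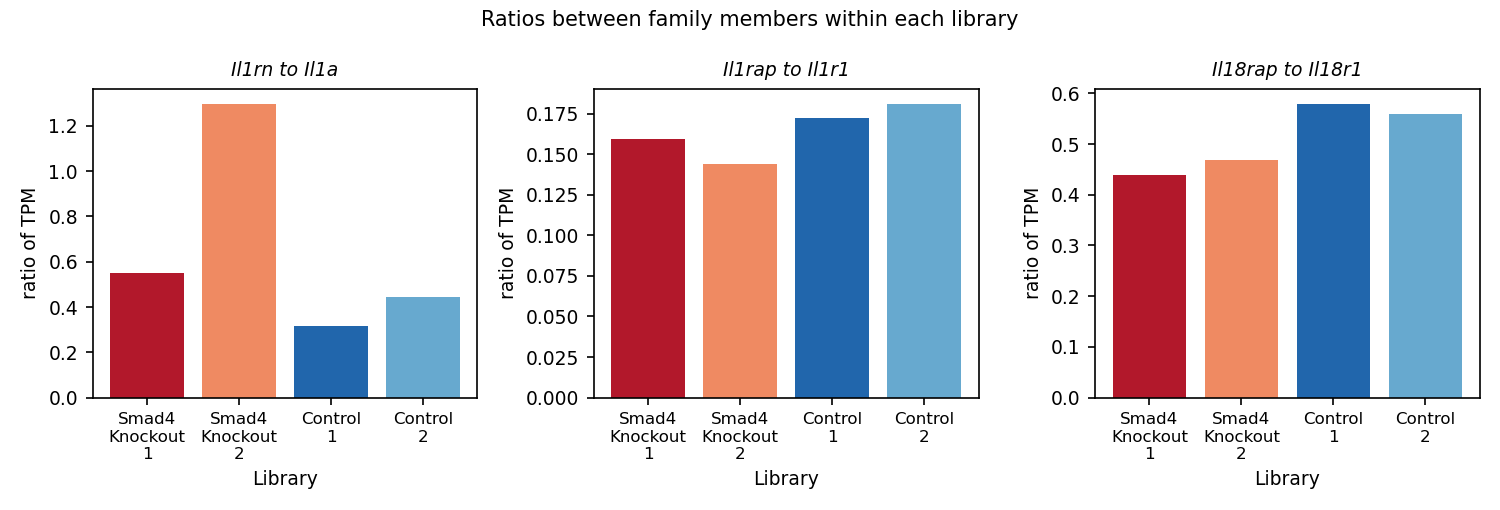
Ratio of TPM between family members within each library (y axes, starting at 0) for the antagonist over its ligand (left), the second chain over IL1R1 (middle) and the second chain over the first chain of the IL-18 receptor (right), with 1 bar per library. The Il1rn to Il1a bars are at 0.552 and 1.3 in the Smad4 Knockout libraries and at 0.317 and 0.444 in the Control libraries.

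The remaining tested family genes did not pass edgeR, DESeq2 or limma. Sigirr, an inhibitory receptor, was at 35.6 and 32.9 CPM in the Smad4 Knockout libraries, against 39.5 and 35.4 CPM in the Control libraries. Il1r2, the decoy receptor for IL-1, was at 0.0926 and 0.124 CPM in the Smad4 Knockout libraries, against 0.0408 and 0.529 CPM in the Control libraries, and its log2 fold change of -1.38 turned to 1.38 without Control 2. Il1rl2, the IL-36 receptor, was at 0.382 and 0.495 CPM in the Smad4 Knockout libraries, against 0.143 and 0.0539 CPM in the Control libraries. These levels rest on 33 and 48 counts in the Smad4 Knockout libraries and 14 and 5 counts in the Control libraries. Its log2 fold change was 2.14 (SE 0.92, edgeR adjusted p = 0.802), and 0.18 with limma on log2(TPM + 1) and no TPM filter. Il1f6 (Il36a) was at 1.39 and 1.54 CPM in the Smad4 Knockout libraries, against 1.34 and 0.744 CPM in the Control libraries.

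Genes that act upstream and downstream of the family were then listed by role. No gene of these lists passed edgeR over all genes. Of 20 genes for processing and release, 14 were tested, with 9 above 0, 5 below and a median log2 fold change of 0.06, which was 0.0092 without Control 2 and -0.0027 without Smad4 Knockout 2. Pycard, Nlrp1a, Nlrp1b, Ctsg and Elane were listed at 0 in all libraries, and Pycard encodes the adaptor of many inflammasomes. The 1 gene with an unadjusted edgeR p under 0.05 was Aim2, a sensor of cytosolic DNA, at 2.02 and 4.78 CPM in the Smad4 Knockout libraries, against 0.888 and 1.29 CPM in the Control libraries (log2 fold change 1.64, SE 0.48, edgeR adjusted p = 0.677). Without Smad4 Knockout 2 its log2 fold change was 0.90, and on log2(TPM + 1) with no TPM filter 0.95. Gsdmd, the pore former of pyroptosis, was at 92.9 and 103 CPM in the Smad4 Knockout libraries, against 83.97 and 85.5 CPM in the Control libraries. Naip5, a sensor of bacterial flagellin with close relatives that may share its reads, had a log2 fold change of 0.26 (SE 0.16). Casp1, the protease that cleaves IL-1β and IL-18, was at most at 1.11 CPM.

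Of the 18 genes that carry the signal from the receptors, all were tested, with 5 above 0, 13 below and a median of -0.05. With edgeR 0 had an unadjusted p under 0.05, beside 6.36% of all tested genes. DESeq2 called 0, beside 0.513% (higher) and 0.173% (lower) of its tested genes, and limma called 0, beside 0%. Irak2, a kinase of the receptor complex, was at 25.3 and 30.0 CPM in the Smad4 Knockout libraries, against 24.5 and 20.8 CPM in the Control libraries. The log2 fold change was -0.22 (SE 0.12) for Ikbkb, a kinase that releases NF-kB, and 0.15 (SE 0.10) for Ikbkg, its regulatory partner. Without Smad4 Knockout 2 Ikbkb was at -0.10, and without Smad4 Knockout 1 at -0.33. Irak3, an inhibitory member of the kinase family, lay furthest from 0 at -1.49 (SE 1.53) on at most 0.613 CPM, and at -0.51 without Smad4 Knockout 1, where it had 0 counts; it was named after its value was seen.

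The 12 NF-kB subunits and inhibitors were all tested, with 1 above 0, 11 below and a median of -0.21. Both Smad4 Knockout libraries lay below both Control libraries for 9 of them, beside 18.6% of all tested genes, while 0 lay above. The differences were small. Tnip1, a partner of the NF-kB inhibitor A20, was at 59.9 and 52.3 CPM in the Smad4 Knockout libraries, against 76.2 and 75.8 CPM in the Control libraries (log2 fold change -0.44, SE 0.11, edgeR adjusted p = 0.677). Nfkbia, which encodes IκBα and is itself induced by NF-kB, was at 63.4 and 55.04 CPM in the Smad4 Knockout libraries, against 73.9 and 73.8 CPM in the Control libraries (-0.32, SE 0.11, edgeR adjusted p = 0.735). Without Smad4 Knockout 2 the value of Nfkbia was -0.21. Nfkb2 had a log2 fold change of -0.24 (SE 0.10). With edgeR 2 of the 12 were lower at an unadjusted p under 0.05, beside 3.04% of all tested genes, and DESeq2 and limma called 0.

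Of 17 genes known to be induced by IL-1 in epithelium, 14 were tested, with 2 above 0, 12 below and a median of -0.21. Both Smad4 Knockout libraries lay below both Control libraries for 5 of the 14, beside 18.6% of all tested genes, and above for 1, beside 18.2%. With edgeR 4 lower and 1 higher had an unadjusted p under 0.05, beside 3.04% and 3.33% of all tested genes. Csf2, a myeloid growth factor, was at 6.28 and 3.45 CPM in the Smad4 Knockout libraries, against 11.3 and 9.45 CPM in the Control libraries (log2 fold change -1.09, SE 0.31, edgeR adjusted p = 0.677). Zc3h12a, an RNase that degrades inflammatory transcripts, was at 9.57 and 7.16 CPM in the Smad4 Knockout libraries, against 13.3 and 12.8 CPM in the Control libraries (log2 fold change -0.64, SE 0.19, edgeR adjusted p = 0.677). Cxcl1, a neutrophil chemokine, went the other way at 6.77 and 15.9 CPM in the Smad4 Knockout libraries, against 4.9 and 3.05 CPM in the Control libraries (log2 fold change 1.51, SE 0.45, edgeR adjusted p = 0.677). It was the 1 gene of the list called by DESeq2 (adjusted p = 0.047), which called 0.513% of all its tested genes higher. Without Smad4 Knockout 2 the log2 fold change was -0.71 for Csf2 and 0.78 for Cxcl1. The median of the list was -0.02 without Control 1 and -0.07 without Smad4 Knockout 2, against -0.35 without Control 2.

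**Figure D5:**
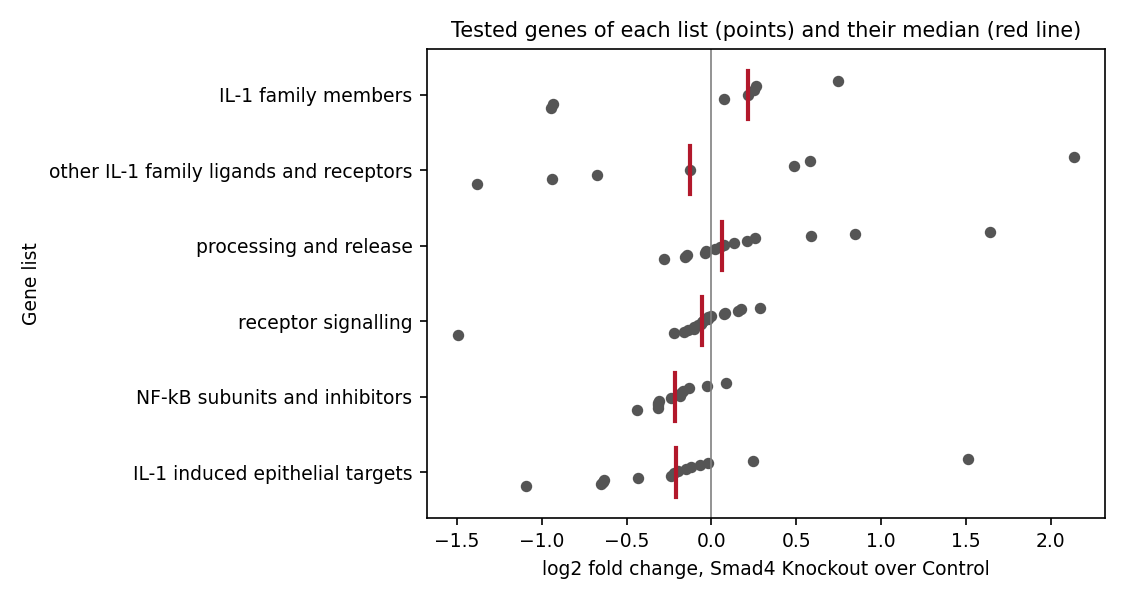
Log2 fold change of Smad4 Knockout over Control (x axis) for the tested genes of 6 lists (y axis), with 1 point per gene and the median as a red line. The NF-kB and target medians both lie at -0.21, the median of the family members at 0.22, and the receptor signalling median at -0.05.

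Markers of gastric surface and neck cells (Muc5ac, Tff1, Gkn1, Tff2, Muc6) were also followed. They summed to 234 and 295 TPM in the Smad4 Knockout libraries, against 133 and 96.5 TPM in the Control libraries. Most of each sum was Tff1 and Tff2. Of the 5 log2 fold changes 4 were above 0, beside 49.5% of all tested genes, and the groups overlapped for Muc5ac. Muc6 went the other way, with 0 and 0 counts in the Smad4 Knockout libraries, against 16 and 12 counts in the Control libraries. DESeq2 called 3 of the 5 higher, beside 0.513% of all its tested genes, and edgeR called 0. The part of these markers in the values of the IL-1 family was not tested. The 4 neutrophil markers, of which Ly6g gave nearly all, summed to 18.6 and 56.97 TPM in the Smad4 Knockout libraries, against 6.89 and 4.72 TPM in the Control libraries, while S100a8 and Csf3r were at 0 in all libraries. Markers of keratinocytes and forestomach, another epithelium of the mouse stomach, summed to 9.75 and 13.5 TPM in the Smad4 Knockout libraries. In the Control libraries they summed to 8.46 and 7.66 TPM. All 5 log2 fold changes were above 0, beside 49.5% of all tested genes. The groups overlapped for Krt14 and Krt13, and 3 markers lay higher without overlap, as did 18.2% of all tested genes. Trp63 had 16 and 15 counts in the Smad4 Knockout libraries, against 10 and 0 counts in the Control libraries. With edgeR 0 of the 5 had an unadjusted p under 0.05, and edgeR, DESeq2 and limma called 0. The 5 fibroblast markers summed to 0.552 and 0.291 TPM in the Smad4 Knockout libraries, against 0.655 and 0.937 TPM in the Control libraries. Of these, Col1a1, Col3a1 and Pdgfra were tested, and all 3 lay lower without overlap, as did 18.6% of all tested genes. Their log2 fold changes were -1.15 (SE 0.49), -2.34 (SE 1.62) and -0.98 (SE 0.39), and 0 passed edgeR over all genes. Col3a1 had 10 and 0 counts in the Smad4 Knockout libraries, against 22 and 34 counts in the Control libraries. The untested Dcn and Col1a2 had 2 and 5 counts and 16 and 0 counts in the Smad4 Knockout libraries. Both were at 0 in the Control libraries. The part of these marker lists in the values of the IL-1 family was likewise not tested.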

How the data were processed

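Per the labels' protocols, RNA from 4 mouse gastric organoid samples went into TruSeq Stranded Total RNA Gold libraries, a method that depletes ribosomal RNA and marks strand. The submitters' processing notes list StringTie 2.1.3b, HISAT2 2.1.0, Trimmomatic, bcl2fastq 2.20.0 and mm10, while no source used here gives the strand setting or the counting step. The deposited files hold, per the file headers, TPM, FPKM and a read count, taken as an estimated count, of 45777 genes. The deposited counts, all whole numbers, entered the fits through a rounding step, which leaves whole numbers unchanged. The deposited TPM were used for levels, ratios and the limma fits, and the FPKM for no result. A total of 1 further FPKM column, a copy of another sample's column at all 45777 genes, was not used. The columns of Control 2 carry its title with an added 2. Spreadsheet dates had replaced 26 gene symbols, restored from the gene ID with RefSeq, which held 45679 of the IDs. Il36a, Il36b, Il36g and Il36rn were matched to Il1f6, Il1f8, Il1f9 and Il1f5 through RefSeq synonyms.

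The test was the quasi-likelihood F-test of edgeR 4.0.16 under R 4.3.3 (TMM; filterByExpr, minimum count 10), fitted on genotype alone, with p-values adjusted over 18115 genes by Benjamini-Hochberg at 0.05; standard errors are the fold change over the root of F. The common dispersion was 0.068. The fit was checked on simulated data. Alternatives were RLE, no count filter, DESeq2 1.42.0, limma 3.58.1 with trend on log2(TPM + 1) or log2(TPM + 0.1), no TPM filter, and leaving out each library. The members and lists were chosen with earlier results of these data known. Named genes are all members, other family genes above 0 counts, the 3 genes with the smallest p of each list, and the 3 closest to the most abundant member; Casp1, genes at 0 and markers are named for their level.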

Additional observations from a re-analysis of the deposited data

How the results depend on the processing

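Over 68 fold changes of the 7 tested members under the alternatives, 67 kept their direction, 1 turned and 0 were called. Il1rap turned, at -0.0719 without Control 1 (highest 0.238, without Control 2). The number of genes called was 98 higher and 33 lower with DESeq2, against 0 and 0 with edgeR, and from 0 to 48 higher and from 0 to 44 lower when a library was left out; the cause was not tested. Leaving out a library gave from -1.43 to -0.56 for Il1a, 0.45 to 0.995 for Il18, -1.32 to -0.41 for Il1rl1, 0.12 to 0.40 for Il33 and 0.03 to 0.39 for Il1rn.

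The median of the other family genes was 0.19 with no count filter and 0.19 with DESeq2, where 10 genes entered in place of 7, and 0.0206 with no TPM filter. Leaving out a library, the medians ranged from 0.0484 to 0.28 for the members, -0.0584 to 0.31 for the other family genes, -0.13 to 0.00647 for receptor signalling, -0.31 to -0.15 for NF-kB, -0.0027 to 0.13 for processing and release, and -0.35 to -0.0162 for the targets. The log2 difference of the Il18rap to Il18r1 ratio was -0.25 with CPM, against -0.33 with TPM. No paired analysis was possible because the replicate numbers follow sample order. With 2 libraries a group, 1 library can set a value, and Il1b, Il1r2 and Il1rl2 are limited by their counts.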

Other observations

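Several genes that IL-1 induces in epithelium were abundant in all 4 libraries; they are named here after their values were seen. Cxcl5, a neutrophil chemokine, was at 1626 and 1286 TPM in the Smad4 Knockout libraries, against 1655 and 1416 TPM in the Control libraries. Ptgs2, the inducible cyclooxygenase, was at 228 and 132 TPM in the Smad4 Knockout libraries, against 277 and 263 TPM in the Control libraries (log2 fold change -0.63, SE 0.22, edgeR adjusted p = 0.734; -1.01 without Smad4 Knockout 1 and -0.32 without Smad4 Knockout 2). Ccl20, a chemokine for dendritic cells and lymphocytes, was at 97.9 and 118 TPM in the Smad4 Knockout libraries, against 93.6 and 83.8 TPM in the Control libraries. Il6 and Defb4 were listed at 0 in all libraries.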
